A study of Mus musculus with 8 samples.

Results

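The keratins described here were the 50 rows, of 55247 in the table of counts, whose gene symbol is Krt followed by a number alone. Of these, 42 had at least 1 count in the 8 mice, 32 had 20 or more in sum, and 8 were at 0 in every mouse. All 8 mice were 8-week-old female wild-type mice (C57BL/6J in the sample labels, C57BL/6JJmsSlc in the study's methods), and all bore an EL4 tumor (EL4 is a T-cell lymphoma line of the mouse) in the back skin after a subcutaneous injection of 100 μL of 2000000 cells/mL on Day 0. On Day 14, 4 mice (Bexarotene 1 to 4) received 0.1 mg of bexarotene, which binds the retinoid X receptors, by intraperitoneal injection and 4 (Vehicle 1 to 4) received the vehicle, a solution of dimethyl sulfoxide in corn oil per the methods, and the tissue was harvested on Day 16 for bulk RNA-seq. Skin without a tumor was not analysed here. The tissue mixes tumor, infiltrating and skin cells, so fewer cells of a type and less RNA per cell cannot be told apart.

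Keratins are the intermediate filament proteins of epithelial cells. Each filament is built from pairs of a type I (acidic) and a type II (basic) keratin, and the pair in use changes with the layer and the cell type. In the epidermis, basal cells make *Krt5* with *Krt14*, and cells that leave the basal layer change to *Krt1* with *Krt10*. Inner root sheath keratins and hair keratins are made in the lower hair follicle while a hair grows, and simple-epithelial keratins such as *Krt8* and *Krt18* are typical of single-layered epithelia of internal organs. EL4 cells, as lymphocytes, are not an epithelial cell type. Of the 50 keratins, 26 were type I and 24 type II. On GRCm39, 25 lay on chromosome 11 between bases 99123587 and 100160697 and 25 on chromosome 15 between bases 101245325 and 101940462, and *Krt18* was the type I gene in the chromosome 15 cluster. Between *Krt40* and *Krt33a* on chromosome 11 lay 23 genes of keratin-associated proteins, the matrix proteins of hair.

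The libraries held 8518428 to 24020342 counts. Levels are given as CPM, counts per 1000000 of the library size after TMM scaling (trimmed mean of M values), and 1 count was worth 0.0199 CPM in Vehicle 1 and 0.422 CPM in Bexarotene 2, the extremes of the 8 mice. Levels of different genes are compared only as CPM per kilobase of the gene length in the table. Keratins made up 41393 counts, 0.0300% of all counts. The inner root sheath and hair keratins together held 18137 of these, 43.8%.

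The promoters of 6 keratins are shown first, because the classes differed in short sequence motifs before their start sites. Whether these motifs bear on the keratin levels of the mice was not tested. The sequences are the 250 bases before the first base of each gene's canonical transcript in GENCODE vM39, read from GRCm39, the build the authors used. They are *Krt71* (chr15:101651545-101651794, minus strand) and *Krt25* (chr11:99213778-99214027, minus strand) from the inner root sheath, *Krt34* (chr11:99932381-99932630, minus strand) and *Krt86* (chr15:101371104-101371353, plus strand) from the hair shaft, *Krt14* (chr11:100098491-100098740, minus strand) from the basal layer and *Krt10* (chr11:99280196-99280445, minus strand) from the suprabasal layers. Capitals mark exact matches to the TATA box TATAAA, searched on the coding strand, and to the LEF/TCF motif CTTTGAA, the AP-1 motif TGANTCA, the AP-2 motif GCCNNNGGC and the nuclear receptor motif AGGTCA, searched on both strands. No matches overlapped in these 6 sequences.
Krt71: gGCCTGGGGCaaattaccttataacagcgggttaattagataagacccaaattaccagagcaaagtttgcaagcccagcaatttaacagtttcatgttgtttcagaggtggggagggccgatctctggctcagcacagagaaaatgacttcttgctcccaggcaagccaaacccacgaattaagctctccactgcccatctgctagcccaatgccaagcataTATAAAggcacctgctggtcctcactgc
Krt25: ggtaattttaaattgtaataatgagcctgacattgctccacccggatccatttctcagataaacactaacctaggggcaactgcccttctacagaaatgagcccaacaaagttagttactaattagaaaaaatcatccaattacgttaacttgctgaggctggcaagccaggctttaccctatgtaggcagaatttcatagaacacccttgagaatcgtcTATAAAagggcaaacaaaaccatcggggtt
Krt34: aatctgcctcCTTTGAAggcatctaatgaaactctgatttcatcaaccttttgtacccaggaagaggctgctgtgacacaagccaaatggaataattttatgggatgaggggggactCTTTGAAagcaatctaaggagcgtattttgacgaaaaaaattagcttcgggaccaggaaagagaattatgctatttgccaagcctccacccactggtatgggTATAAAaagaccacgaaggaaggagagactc
Krt86: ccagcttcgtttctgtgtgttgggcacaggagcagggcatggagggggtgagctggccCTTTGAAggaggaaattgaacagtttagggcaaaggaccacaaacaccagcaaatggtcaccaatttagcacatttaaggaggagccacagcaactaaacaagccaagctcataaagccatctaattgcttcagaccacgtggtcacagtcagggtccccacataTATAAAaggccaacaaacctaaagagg
Krt14: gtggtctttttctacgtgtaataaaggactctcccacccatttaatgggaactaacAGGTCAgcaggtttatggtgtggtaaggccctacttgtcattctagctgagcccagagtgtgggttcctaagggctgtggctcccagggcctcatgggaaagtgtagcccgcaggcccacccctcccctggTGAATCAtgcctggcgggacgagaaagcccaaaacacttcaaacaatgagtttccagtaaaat
Krt10: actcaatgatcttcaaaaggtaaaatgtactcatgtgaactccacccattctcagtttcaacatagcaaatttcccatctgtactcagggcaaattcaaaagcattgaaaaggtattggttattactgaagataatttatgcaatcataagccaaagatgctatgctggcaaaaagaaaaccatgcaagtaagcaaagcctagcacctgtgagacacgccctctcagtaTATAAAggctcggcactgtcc

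In *Krt71*, which encodes a type II keratin of the inner root sheath, TATAAA began 28 bases before the start site, and in *Krt25*, a type I keratin of the same cells, 30 bases before it. The hair keratins *Krt34* (type I) and *Krt86* (type II), both known from the human hair cortex, had TATAAA 31 and 27 bases before the start. They also had LEF/TCF matches, at 240 and 133 bases in *Krt34* and at 192 bases in *Krt86*. *Krt10* had TATAAA 21 bases before its start, and *Krt14* had none but held an AP-1 match at 63 bases and an AGGTCA motif at 194 bases. In the table of counts the minus-strand gene *Krt14* ends at base 100098374, downstream of the start used here. Its matches and distances therefore depend on the start chosen. Over the 49 keratin promoters read, TATAAA was present in 38.8%, against 8.04% of the promoters of 21757 protein-coding genes. It was found in 6 of 7 inner root sheath promoters and 8 of 15 hair promoters, but in 1 of 10 basal and suprabasal promoters, that of *Krt10*. CTTTGAA was found in 9 of 15 hair promoters (60.0%, against 4.84% of all), in 0 of 7 inner root sheath promoters and in 0 of 10 basal and suprabasal promoters. The AP-1 motif, in 6.18% of all promoters, was in 2 of the 10 basal and suprabasal promoters (*Krt14* and *Krt15*), in 0 of 7 inner root sheath and 0 of 15 hair promoters, and also in those of *Krt16*, *Krt17*, *Krt13* and *Krt4*. The AP-2 motif was in 20.4% of keratin promoters and 13.2% of all. The AGGTCA motif, a motif short enough to be in 13.1% of all promoters, was in 22.4% of keratin promoters, in 3 of 10 basal and suprabasal, 0 of 7 inner root sheath and 2 of 15 hair promoters. These matches describe the letters only. Variants of TATAAA, such as tatataagg before *Krt1* and *Krt2*, were not counted, so a promoter without TATAAA does not thereby lack a TATA box.

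Keratin levels differed far more between mice of a group than between the groups. The 50 keratins summed to 220, 651, 130 and 4.12 CPM in Vehicle 1 to 4 against 57.9, 74.3, 412 and 95.1 CPM in Bexarotene 1 to 4. The lowest and the highest value, a 158-fold range, were both in vehicle-treated mice. Scaled by total counts alone, the range was 91.2-fold. Genes of the T lineage, which EL4 cells express, summed to 121 to 177 CPM, a 1.47-fold range that holds after TMM scaling only. Before scaling these 5 genes had 310 counts in Bexarotene 2, a library of 8518428, and 6414 in Vehicle 1, a library of 23150622. *Thy1* had the most of their counts, 17928 over all mice. The mean of the keratin sums was 251 ± 281 CPM (SD, n = 4) with vehicle against 160 ± 169 (SD, n = 4) with bexarotene, so the difference between the means was smaller than either SD. Keratins with a count numbered 38, 41, 16 and 14 in Vehicle 1 to 4 against 15, 22, 38 and 24 in Bexarotene 1 to 4. The keratin with the highest level per kilobase also differed, being *Krt14* in Vehicle 1, Bexarotene 1 and Bexarotene 2, *Krt10* in Vehicle 3 and Bexarotene 4, *Krt71* in Vehicle 2 and Bexarotene 3, and *Krt27* in Vehicle 4, at 0.691 CPM per kilobase.

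**Figure D1:**
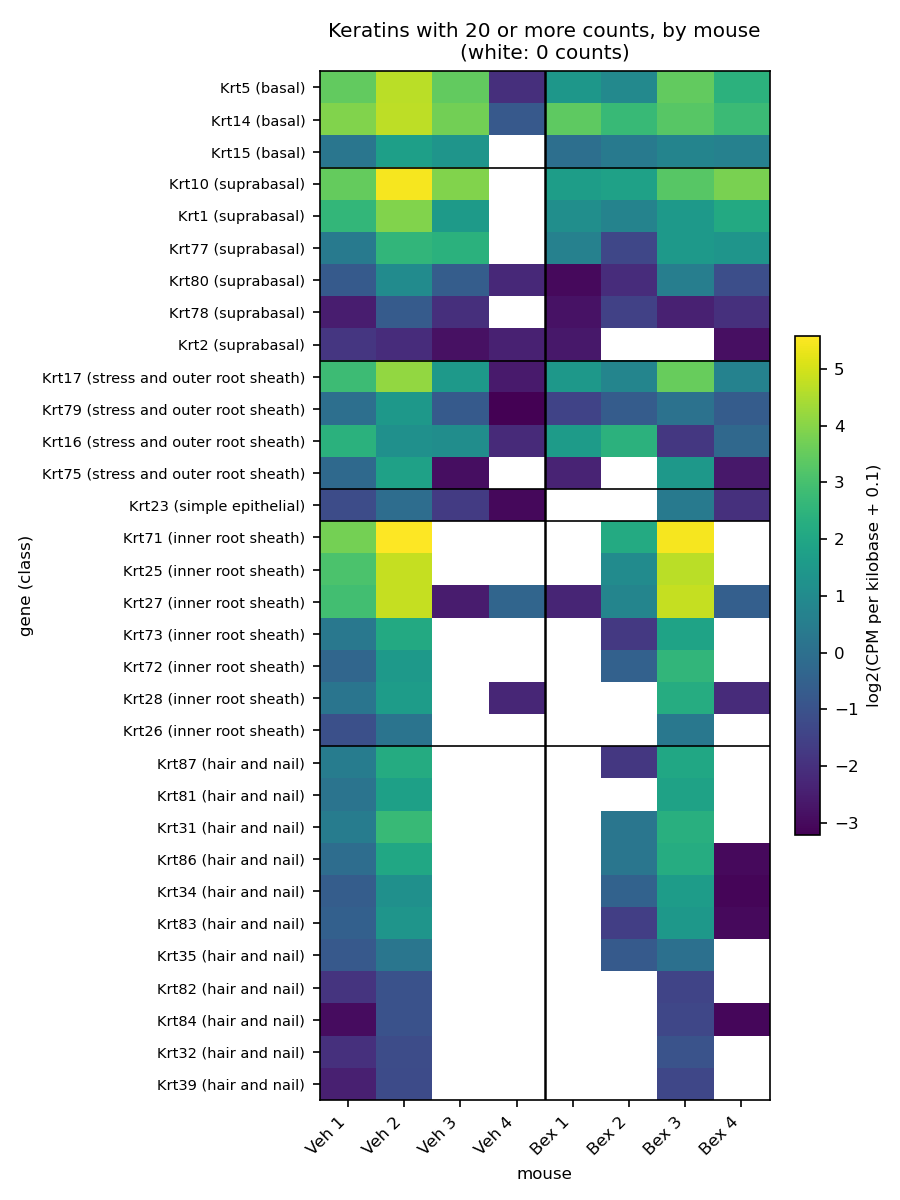
Level of each keratin with 20 or more counts in sum (rows, grouped by class) in each mouse (columns, Veh for vehicle and Bex for bexarotene), as log2 of CPM per kilobase plus 0.1, with white for 0 counts. The 7 inner root sheath and 11 hair rows are all filled in Vehicle 1, Vehicle 2 and Bexarotene 3, 11 of these 18 are filled in Bexarotene 2, most are white in the other 4 mice, and the *Krt5* and *Krt14* rows are filled in all 8 mice.

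Basal keratins were present in all 8 mice. *Krt5*, the type II keratin of basal cells, stood at 28.5, 65.5, 28.6 and 0.368 CPM in Vehicle 1 to 4 and at 6.78, 4.65, 28.5 and 13.9 CPM in Bexarotene 1 to 4. *Krt14*, its type I partner, stood at 26.1, 45.2, 22.9 and 0.871 CPM with vehicle against 18.1, 11.4, 17.1 and 11.9 CPM with bexarotene. For *Krt14*, 3 vehicle-treated mice lay above all 4 bexarotene-treated mice, and for both genes Vehicle 4 lay below every other mouse, so the groups overlapped. *Krt15*, a type I keratin of basal cells and of the follicle bulge, stood at 1.91, 5.72, 4.42 and 0 CPM with vehicle against 1.58, 2.11, 2.79 and 2.59 CPM with bexarotene. The 3 genes summed to 57.5 ± 47.0 CPM (SD, n = 4) with vehicle against 30.4 ± 12.8 (SD, n = 4) with bexarotene.

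The suprabasal keratins *Krt10* and *Krt1* were, like *Krt5* and *Krt14*, highest in Vehicle 2 and lowest in Vehicle 4. Among the bexarotene-treated mice *Krt10* and *Krt1* were both highest in Bexarotene 4, whereas *Krt5* was highest in Bexarotene 3 and *Krt14* in Bexarotene 1. *Krt10*, the type I keratin of differentiating cells, stood at 23.7, 93.5, 31.5 and 0 CPM in Vehicle 1 to 4 and at 6.63, 7.18, 20.6 and 29.3 CPM in Bexarotene 1 to 4. *Krt1*, its type II partner, stood at 26.3, 66.3, 12.6 and 0 CPM with vehicle against 9.15, 6.76, 12.5 and 18.9 CPM with bexarotene. In Vehicle 4 both were at 0 counts, which allows up to 0.100 CPM (3 counts, counting error only), and Vehicle 2 was the highest mouse for both. *Krt77*, a type II keratin of mouse suprabasal cells, stood at 3.51, 17.1, 15.2 and 0 CPM with vehicle against 4.26, 0.845, 8.19 and 7.31 CPM with bexarotene. *Krt80*, a type II keratin of many epithelia, stood at 3.20, 12.3, 3.49 and 0.737 CPM with vehicle against 0.158, 0.845, 8.67 and 2.36 CPM with bexarotene, and was the one tested keratin of this class with counts in Vehicle 4. The type II keratin *Krt78* had 13, 36, 9 and 0 counts with vehicle against 1, 2, 9 and 11 with bexarotene, too few for the filter. The 6 genes with counts summed to 78.3 ± 80.5 CPM (SD, n = 4) with vehicle against 36.4 ± 21.1 (SD, n = 4) with bexarotene. *Krt9*, the type I keratin of palms and soles, was at 0 in every mouse.

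*Krt2*, the type II keratin of the uppermost living layers of mouse ear, tail and sole skin, was low and ordered the mice in another way than *Krt10* and *Krt1*. It had 24, 7, 2 and 7 counts in Vehicle 1 to 4 against 1, 0, 0 and 2 in Bexarotene 1 to 4. Its levels of 0.477, 0.348, 0.109 and 0.234 CPM with vehicle overlapped those of 0.158, 0, 0 and 0.0943 CPM with bexarotene only through Vehicle 3 and Bexarotene 1. It was 1 of 3 keratins outside the follicle with 20 or more counts that were not lowest in Vehicle 4, with *Krt80* and *Krt23*. *Krt2* did not pass the filter on low counts. In the edgeR fit without that filter its log2 fold change was −2.32 (SE 1.01, unadjusted p = 0.0296, adjusted p = 0.832), the one keratin of 42 under an unadjusted p of 0.05 there, against 3.75% of all rows in that fit. The two-sided exact permutation test over 70 assignments gave p = 0.0571, where 0.0286 is the smallest value it can give.

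**Figure D2:**
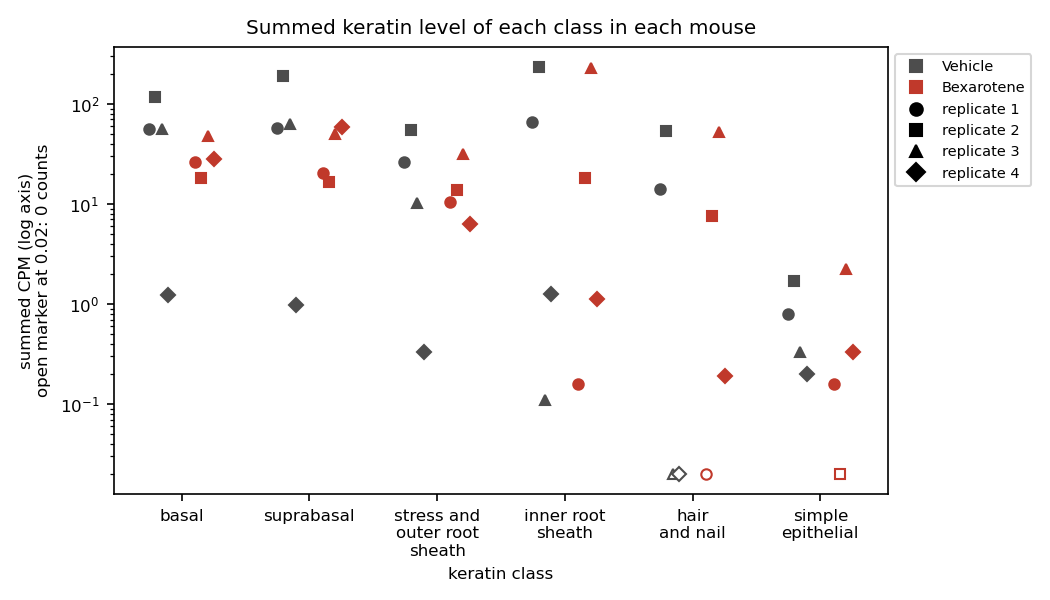
Summed CPM of each keratin class (log axis) in each mouse, grey for vehicle and red for bexarotene, with the replicate number as the marker shape and open markers at 0.02 for 0 counts. The groups overlap in every class, Vehicle 4 lies lowest among the basal, suprabasal and stress keratins, and the inner root sheath sums span 0.109 to 233 CPM.

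*Krt17* and *Krt16* are type I keratins that keratinocytes make after injury, and *Krt17* is also made throughout the outer root sheath. *Krt17* stood at 10.7, 27.7, 4.31 and 0.100 CPM in Vehicle 1 to 4 and at 4.10, 2.53, 17.8 and 2.36 CPM in Bexarotene 1 to 4. *Krt16* stood at 8.54, 3.63, 3.39 and 0.201 CPM with vehicle against 4.89, 8.87, 0.306 and 1.23 CPM with bexarotene. The order of mice therefore differed between these 2 genes: Bexarotene 3 was second highest for *Krt17* and second lowest for *Krt16*, with 524 counts of one and 9 of the other. Per kilobase, the *Krt16* to *Krt17* ratio was 0.746, 0.123, 0.737 and 1.88 with vehicle against 1.12, 3.29, 0.0161 and 0.488 with bexarotene, the values in Vehicle 4 and Bexarotene 2 resting on fewer than 10 counts of *Krt17*. This ratio was chosen after its values were seen. *Krt16* shares 36.0% of its 50-base words with other genes, most of them with *Gm11597*, so its reads could be split by the counting. The 4 keratins with a letter in the number, which lie outside the rule used here, summed to 716, 410, 130 and 21 counts with vehicle against 59, 41, 472 and 30 with bexarotene.

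*Krt79*, a type II keratin of the hair canal, stood at 4.21, 12.8, 2.40 and 0.0335 CPM with vehicle against 1.26, 2.53, 4.55 and 2.55 CPM with bexarotene. *Krt75*, the type II keratin of the companion layer next to the inner root sheath, had 127, 225, 2 and 0 counts with vehicle against 2, 0, 256 and 4 with bexarotene. Among the 14 keratins outside the follicle classes with 20 or more counts, *Krt75*, *Krt17*, *Krt79* and *Krt23* had their 3 highest CPM values in the same mice as the inner root sheath keratins described next, and 11 of 14 were lowest in Vehicle 4, *Krt75* being at 0 there and in Bexarotene 2.

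The inner root sheath keratins were highest in Vehicle 1, Vehicle 2 and Bexarotene 3, intermediate in Bexarotene 2, where 43 counts made up 24.4% of the keratin counts, and at most 1.27 CPM in sum in the other 4 mice. *Krt71* had 1520 and 2207 counts in Vehicle 1 and 2, 0 in Vehicle 3 and 4, 0 in Bexarotene 1, 24 in Bexarotene 2, 2981 in Bexarotene 3 and 0 in Bexarotene 4. *Krt25* had 843, 1116, 0 and 0 counts in Vehicle 1 to 4 against 0, 9, 1492 and 0 in Bexarotene 1 to 4. *Krt27*, another type I keratin of this sheath, had 577, 866, 2 and 32 counts with vehicle against 1, 6, 1260 and 19 with bexarotene. Each group thus held mice with many counts and mice with few or none. In CPM, *Krt71* stood at 30.2 and 110 in Vehicle 1 and 2, at 101 in Bexarotene 3 and at 10.1 in Bexarotene 2, where 1 count weighs most. In the other 4 mice 0 counts allow at most 0.473 CPM (3 counts, counting error only, in Bexarotene 1).

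Of the remaining inner root sheath keratins, *Krt73*, *Krt72*, *Krt28* and *Krt26* were highest in the same 3 mice. *Krt73* (type II, in human in the cuticle of the sheath) had 124, 185, 0 and 0 counts with vehicle against 0, 1, 228 and 0 with bexarotene. *Krt72* (type II, in human also in this cuticle) had 72, 112, 0 and 0 with vehicle against 0, 3, 350 and 0 with bexarotene. *Krt28* (type I) had 99, 112, 0 and 6 with vehicle against 0, 0, 252 and 5 with bexarotene. *Krt26* (type I) had 70, 77, 0 and 0 with vehicle against 0, 0, 124 and 0 with bexarotene, and the pseudogene *Krt74* had 1 count, in Vehicle 2. *Krt27* and *Krt28* were the members with counts in Vehicle 4 and in Bexarotene 4, where *Krt71*, *Krt25*, *Krt26*, *Krt72* and *Krt73* were at 0. *Krt27* shares 11.1% of its 50-base words with *Krt25*. The class summed to 65.6, 233, 0.109 and 1.27 CPM in Vehicle 1 to 4 against 0.158, 18.2, 227 and 1.13 CPM in Bexarotene 1 to 4.

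In Vehicle 1, Vehicle 2 and Bexarotene 3, the inner root sheath keratins stood in broadly similar proportions. In Vehicle 4 and Bexarotene 4 they did not, as *Krt27* held 32 of 38 and 19 of 24 counts of the class and *Krt71* held 0. *Krt71* made up 46.0% of the counts of the class in Vehicle 1 (95% Wilson interval, 44.3 to 47.7), 47.2% in Vehicle 2 (45.8 to 48.6), 44.6% in Bexarotene 3 (43.4 to 45.8) and 55.8% in Bexarotene 2 (41.1 to 69.6), whose interval rests on 43 counts. All such intervals cover counting error only. *Krt72* was an exception, with 2.18% (1.73 to 2.73) in Vehicle 1, 2.40% (1.99 to 2.87) in Vehicle 2 and 5.23% (4.73 to 5.79) in Bexarotene 3, so the share in that 1 mouse lay above both others by more than counting error. Intervals also failed to overlap for *Krt25*, at 25.5% (24.0 to 27.0) in Vehicle 1 against 22.3% (21.3 to 23.3) in Bexarotene 3. For *Krt28* they did so between Vehicle 2, at 2.40% (1.99 to 2.87), and Bexarotene 3, at 3.77% (3.34 to 4.25). Spread between mice cannot be judged from so few. Per kilobase, *Krt71* stood at 1.56, 1.71 and 1.73 times *Krt25* in Vehicle 1, Vehicle 2 and Bexarotene 3. This ratio too was chosen after its values were seen.

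Hair keratins, the keratins of the hard hair shaft, had their highest summed levels in Vehicle 2, Bexarotene 3 and Vehicle 1, followed by Bexarotene 2, where 18 counts made up 10.2% of the keratin counts (95% Wilson interval, 6.57 to 15.6). *Krt86* had 84, 155, 0 and 0 counts in Vehicle 1 to 4 against 0, 5, 263 and 1 in Bexarotene 1 to 4. *Krt34* had 74, 121, 0 and 0 with vehicle against 0, 4, 241 and 1 with bexarotene, and *Krt31*, a type I keratin of the human hair cortex, had 103, 204, 0 and 0 with vehicle against 0, 4, 231 and 0 with bexarotene. In Vehicle 3, Vehicle 4 and Bexarotene 1 no hair keratin had a count. The type II hair keratin *Krt81* had 130, 172, 0 and 0 counts with vehicle against 0, 0, 264 and 0 with bexarotene. *Krt87* (type II) had 149, 203, 0 and 0 with vehicle against 0, 1, 266 and 0 with bexarotene. *Krt83* (type II, human hair cortex) had 56, 92, 0 and 0 with vehicle against 0, 1, 144 and 1 with bexarotene. These 3 genes again put Vehicle 1, Vehicle 2 and Bexarotene 3 on top.

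*Krt35*, a type I keratin of the hair matrix, had 63, 55, 0 and 0 counts with vehicle against 0, 3, 68 and 0 with bexarotene. The type I hair cuticle keratin *Krt32* had 13, 12, 0 and 0 with vehicle against 0, 0, 21 and 0 with bexarotene, and the type II hair cuticle keratin *Krt82* had 18, 17, 0 and 0 with vehicle against 0, 0, 17 and 0 with bexarotene. In CPM, *Krt32* stood at 0.258, 0.597 and 0.714 and *Krt82* at 0.357, 0.845 and 0.578 in Vehicle 1, Vehicle 2 and Bexarotene 3. *Krt84* (type II) had 4, 21, 0 and 0 counts with vehicle against 0, 0, 23 and 1 with bexarotene, and *Krt39* (type I) had 7, 11, 0 and 0 with vehicle against 0, 0, 14 and 0 with bexarotene. *Krt40* and *Krt36* had 13 and 10 counts in sum in the same 3 mice, and *Krt42* and *Krt88* had none. The class summed to 14.1, 53.4, 0 and 0 CPM in Vehicle 1 to 4 against 0, 7.60, 52.9 and 0.189 CPM in Bexarotene 1 to 4.

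Of the 21 inner root sheath and hair keratins with a count, 20 had their 3 highest counts in Vehicle 1, Vehicle 2 and Bexarotene 3, the exception being *Krt74* with its single count. By CPM the number was 17 of 21, because the 3 to 5 counts of *Krt34*, *Krt35* and *Krt86* in Bexarotene 2 outweighed their counts in Vehicle 1. A count was worth 0.422 CPM in Bexarotene 2 and 0.0199 CPM in Vehicle 1. This weight reflects both the totals, 8518428 and 23150622 counts, and the TMM factors, 0.278 and 2.18. Of the 21, 15 were at 0 in Vehicle 3, Vehicle 4, Bexarotene 1 and Bexarotene 4. No label sets these mice apart, and they came from both groups. Paralogues share sequence in this class: *Krt81* and *Krt86* share 44.0% and 43.1% of their 50-base words with other genes, *Krt87* 33.9%, *Krt34* 33.1%, *Krt31* 28.1% and *Krt83* 23.2%, so counts among them may be split unevenly.

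**Figure D3:**
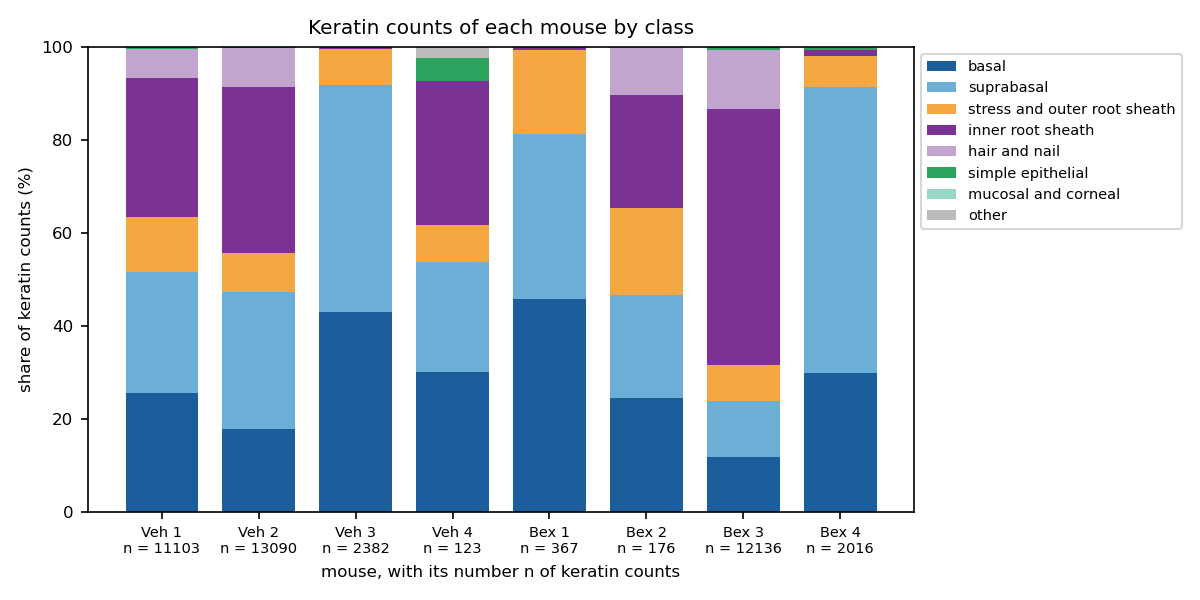
Share of each mouse's keratin counts by class (percent, stacked bars), with n the number of keratin counts of that mouse. Inner root sheath keratins take 55.1% and hair keratins 12.8% in Bexarotene 3, inner root sheath keratins take at most 1.19% in Vehicle 3, Bexarotene 1 and Bexarotene 4, and the shares of Vehicle 4 and Bexarotene 2 rest on 123 and 176 counts.

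Apart from *Krt23*, simple-epithelial keratins had few counts in every mouse. *Krt8* had 2 counts in Vehicle 2 and 4 in Bexarotene 3 and 0 in the other 6 mice, and *Krt18*, its type I partner, had 4, 2, 0 and 1 counts with vehicle against 0, 0, 3 and 0 with bexarotene. *Krt19*, a type I keratin of simple epithelia and of the follicle bulge, had 6, 2, 0 and 1 counts with vehicle against 1, 0, 4 and 1 with bexarotene. *Krt7*, the type II keratin of ducts and glands, had 8 counts in all, and *Krt20*, a keratin of the gut lining, had none. Only *Krt23*, a type I keratin, reached 20 counts, with 27, 27, 6 and 1 with vehicle against 0, 0, 55 and 5 with bexarotene, and it held most of the 0.753 ± 0.675 CPM (SD, n = 4) of this class with vehicle against 0.683 ± 1.05 (SD, n = 4) with bexarotene. In 8 of 8 mice the simple-epithelial sum lay below the basal sum. Mucosal and corneal keratins were absent but for 8 counts of *Krt24*, and *Krt12*, *Krt13*, *Krt76* and *Krt4* were at 0. Unclassified members had 8 counts of *Krt222* and 1 of *Krt90*. *Krt8* shares 26.9% of its 50-base words with *Krt8-ps*. Of the 50 keratins, 14, among them *Krt5*, *Krt10*, *Krt80*, *Krt75* and *Krt8*, overlap a gene on the other strand, and as no source used here says whether counting used strand, reads of such partners may not be told apart.

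Within mice, the order of the classes was not the same. Summed per kilobase, basal keratins led in Vehicle 3 at 26.6 CPM per kilobase, in Bexarotene 1 at 13.8 and in Bexarotene 2 at 9.47, there close to the 8.78 of the inner root sheath keratins and from 43 counts of each class. Suprabasal keratins led in Bexarotene 4 at 21.2, against 13.6 for basal keratins. Inner root sheath keratins led in Vehicle 1 at 32.2, in Vehicle 2 at 115, in Bexarotene 3 at 112 and in Vehicle 4 at 0.799, from 38 counts. As a share of keratin counts, basal keratins ranged from 11.7% in Bexarotene 3 to 45.8% in Bexarotene 1, and suprabasal keratins from 12.2% in Bexarotene 3 to 61.6% in Bexarotene 4.

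The ratio of the partners of a pair was not fixed across mice. The *Krt5* to *Krt14* ratio per kilobase was 0.740, 0.984, 0.847 and 0.287 in Vehicle 1 to 4 against 0.254, 0.276, 1.13 and 0.794 in Bexarotene 1 to 4. It was lowest in the 3 mice with the fewest keratin counts, Vehicle 4, Bexarotene 1 and Bexarotene 2, which came from both groups. The *Krt1* to *Krt10* ratio was 0.532, 0.340 and 0.192 in Vehicle 1 to 3 against 0.661, 0.451, 0.290 and 0.309 in Bexarotene 1 to 4, with no value in Vehicle 4, where both genes were at 0. *Krt10* over *Krt14*, a suprabasal over a basal keratin, was 0.754, 1.72 and 1.14 in Vehicle 1 to 3 against 0.304, 0.524, 1.01 and 2.05 in Bexarotene 1 to 4. Among mice with at least 20 counts of each gene, the first ratio spanned 4.47-fold, the second 3.45-fold and the third 6.76-fold. Type II keratins summed to less than type I keratins per kilobase in all 8 mice, from 0.234 times in Vehicle 4 to 0.883 times in Bexarotene 3. All these ratios depend on the gene lengths of the table, which for some genes exceed the canonical transcript. *Krt1* was 4415 bases long there against 2406 words of 50 bases in that transcript, and *Krt10* 2114 against 2058.

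**Figure D4:**
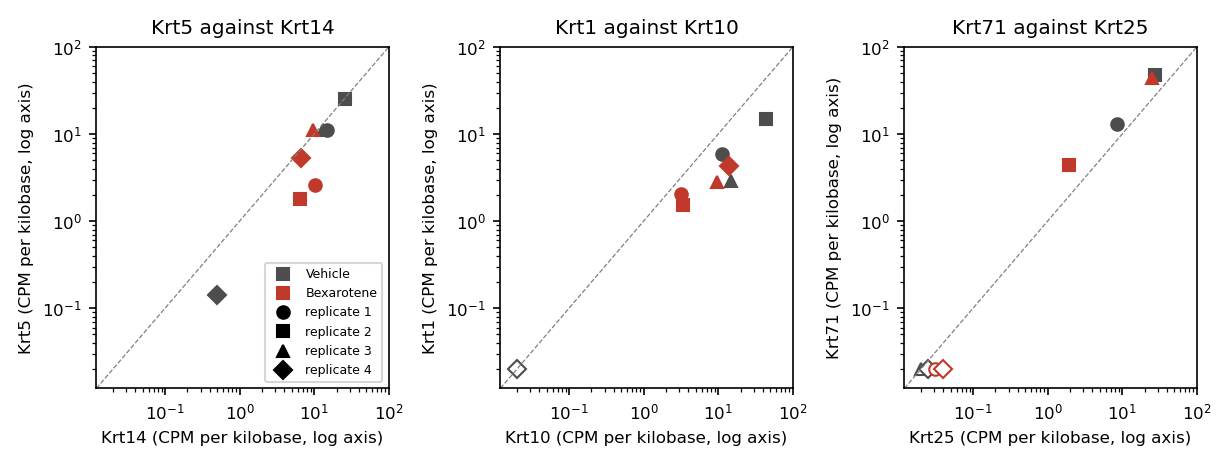
Type II keratin against its type I partner in each mouse (both in CPM per kilobase on log axes, dashed line for equal levels, open markers for 0 counts of both genes, set side by side). Krt71 and Krt25 are both at 0 in 4 mice and both high in Vehicle 1, Vehicle 2 and Bexarotene 3, while Krt5 and Krt14 have counts in all 8.

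Bexarotene was compared with vehicle by edgeR's quasi-likelihood test over the 11616 rows that passed the filter on low counts, and p-values were adjusted over them after Benjamini and Hochberg. Of the 50 keratins, 14 passed this filter: all 3 basal, 4 suprabasal, 3 stress and outer root sheath, 3 inner root sheath and 1 hair keratin. None had an adjusted p under 0.05 in edgeR, as for all rows (0.00%). None had an unadjusted p under 0.05, against 3.68% of all rows (2.38% higher and 1.30% lower with bexarotene), and DESeq2 called none either way. None had groups that did not overlap in CPM, against 2.83% of all rows. The smallest p was that of *Krt5*, 0.256 (adjusted p = 0.976). The fitted log2 fold change, bexarotene over vehicle, was below 0 in 13 of 14, against 53.5% of all rows, with a median of −0.52 against −0.03. These 14 share the same 8 mice and often the same cells, so they are not 14 separate observations.

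By class, the fitted log2 fold changes were −1.10 (SE 0.92) for *Krt5*, −0.68 (SE 0.72) for *Krt14* and −0.31 (SE 0.84) for *Krt15* among basal keratins. Among suprabasal keratins they were −1.15 (SE 1.08) for *Krt10*, −1.09 (SE 1.02) for *Krt1*, −0.59 (SE 0.95) for *Krt77* and −0.41 (SE 0.84) for *Krt80*. *Krt79*, *Krt16* and *Krt17* had −0.72 (SE 0.90), −0.53 (SE 1.01) and −0.52 (SE 0.99). The 95% interval of each of these 10 included 0. For the inner root sheath keratins *Krt25*, *Krt71* and *Krt27* the fold changes were −0.28 (SE 1.67), −0.27 (SE 1.82) and −0.11 (SE 1.37), and for the hair keratin *Krt86* it was 0.46 (SE 1.38). The class medians were −0.68, −0.84, −0.53 and −0.27 for basal, suprabasal, stress and inner root sheath keratins.

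The intervals show how little these data limit a difference. The narrowest 95% interval, that of *Krt14*, ran from −2.26 to 0.89 on the log2 scale, and that of *Krt71* from −4.26 to 3.72. The SEs of the 14 keratins ran from 0.72 to 1.82 with a median of 1.0, against a median of 0.30 over all rows, and 97.4% of all rows had a smaller SE than any keratin. No test of these keratins shows that bexarotene left them alone.

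**Figure D5:**
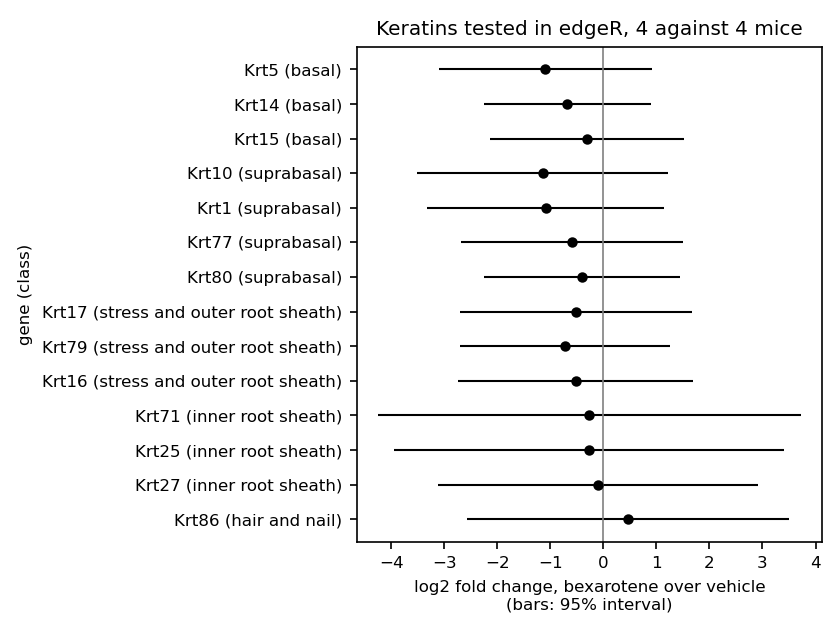
Fitted log2 fold change of the 14 tested keratins, bexarotene over vehicle (points), with its 95% interval (bars), by class. All 14 intervals span 0, 13 of 14 points lie below 0, and the inner root sheath and hair keratins have the widest bars.

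Single mice decided much of this. Without Vehicle 4, the mouse with 123 keratin counts, 29 keratins could be tested in edgeR and 4 of them had an unadjusted p under 0.05, all lower with bexarotene: *Krt14* with a log2 fold change of −1.07, *Krt1* with −1.49, *Krt5* with −1.49 and *Krt10* with −1.55, each with an adjusted p of 0.989. In that fit 375 of 12146 rows were under 0.05. Without Bexarotene 3, the fold changes were −5.50 for *Krt25*, −4.51 for *Krt71* and −3.94 for *Krt27*, the last with an unadjusted p under 0.05 and an adjusted p of 0.617 in edgeR. There, 1 of 13 keratins tested and 914 of 11648 rows were under an unadjusted p of 0.05. Without Vehicle 2 the fold changes of the same genes, in this order, were 1.36, 1.50 and 1.54. The median over the keratins tested was −0.59 without Vehicle 1, 0.22 without Vehicle 2, −0.56 without Vehicle 3, −0.62 without Vehicle 4, 0.13 without Bexarotene 1, −0.04 without Bexarotene 2, −1.26 without Bexarotene 3 and 0.22 without Bexarotene 4. When libraries were scaled by total counts alone, the median over all rows was −0.66 and that over the keratins −0.64, with 7 of 14 keratins below the former. *Krt16* then had −1.85 (edgeR adjusted p = 0.687) and was the 1 keratin of 14 with an unadjusted p under 0.05, against 80 of 11616 rows.

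Other epithelial genes were compared with the keratins to see whether they followed the same mice. Of 20 genes of desmosomes and hemidesmosomes, the junctions that keratin filaments attach to, 19 were tested, 15 with a fold change below 0 and 4 above, with a median of −0.48. *Dsp*, which anchors keratin filaments to desmosomes, had 1741, 1821, 445 and 4 counts in Vehicle 1 to 4 against 69, 23, 1594 and 328 in Bexarotene 1 to 4. *Plec*, a cytoskeletal linker that many tissues make, had 3647, 1736, 996 and 1533 counts with vehicle against 569, 247, 3259 and 1470 with bexarotene, and *Perp*, a desmosome protein, had 860, 542, 255 and 355 with vehicle against 93, 17, 1052 and 248 with bexarotene. *Dsp* thus followed the keratins to near 0 in Vehicle 4, whereas *Plec* and *Perp* did not. Of 12 keratinocyte regulators and surface genes, 8 were tested, all with a fold change below 0 and a median of −0.58. Among them *Sfn*, *Klf4* and *Cdh1* had 34, 17 and 7 counts in Vehicle 4 against 456, 197 and 179 in Vehicle 1. None of the tested genes of these lists had an unadjusted p under 0.05 in edgeR, against 3.68% of all rows. With so few genes tested, this says little about them.

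Several hair genes that are not keratins had their highest levels in the same 3 mice as the hair keratins. *Tchh*, which encodes trichohyalin of the inner root sheath, had 4252, 7604, 1 and 0 counts in Vehicle 1 to 4 against 0, 48, 10072 and 3 in Bexarotene 1 to 4. The 58 *Krtap* genes had 1627, 3244, 2 and 1 counts with vehicle against 2, 37, 5480 and 4 with bexarotene. *Krtap7-1*, with the most counts of them, had 198, 324, 0 and 0 with vehicle against 0, 2, 539 and 0 with bexarotene, *Krtap3-1* had 149, 350, 0 and 0 with vehicle against 0, 2, 450 and 2 with bexarotene, and *Krtap8-1* had 114, 182, 0 and 0 with vehicle against 0, 1, 327 and 0 with bexarotene. *Dlx3*, a transcription factor of the hair follicle, had 135, 250, 3 and 0 with vehicle against 0, 0, 193 and 4 with bexarotene. *Gata3*, a factor of the inner root sheath that T cells also make, had 546, 350, 330 and 390 with vehicle against 68, 35, 414 and 208 with bexarotene and did not follow this pattern. *Lef1*, a transcription factor of the hair matrix that T cells also make, did not follow it either, at 2.60, 7.86, 3.22 and 0.569 CPM with vehicle against 4.26, 5.49, 3.33 and 1.46 CPM with bexarotene, and was named after its values were seen. Of the 10 non-*Krtap* follicle genes 4 were tested, all with a fold change below 0 and a median of −0.31.

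Markers of other cells in the tissue were read in the same mice. The 7 defining keratinocyte markers, 4 of them keratins, summed to 112, 297, 105 and 1.27 CPM in Vehicle 1 to 4 against 43.1, 31.7, 89.4 and 79.2 CPM in Bexarotene 1 to 4, and in Vehicle 4 *Krt1*, *Krt10*, *Lor* and *Trp63* were at 0. Most of these counts were those of the 4 keratins, so the sums largely restate the keratin levels. Keratinocyte markers were thus found in 7 mice and hardly in Vehicle 4. In Bexarotene 1 and 2, however, *Trp63* had only 3 and 0 counts and *Lor* 5 and 3. Fibroblast markers (6 of 6 tested, median 0.09) ranged from 262 to 782 CPM with vehicle against 377 to 1683 with bexarotene. *Col1a1*, with the most counts, *Col1a2* and *Col3a1* had log2 fold changes of 1.14, 0.72 and 0.60. *Dcn*, *Lum* and *Pdgfra* had −0.58, −0.73 and −0.43. Skeletal muscle markers (4 of 5 tested, median 0.83) ranged from 32.5 to 103 and 9.29 to 184. Of these, *Myh4* had a log2 fold change of 2.42 (unadjusted p = 0.0244, adjusted p = 0.976 in edgeR). Adipocyte markers (3 of 4 tested, median −0.04) ranged from 0.871 to 8.45 and 0.422 to 7.0. Macrophage markers (4 of 4 tested, median −0.44) ranged from 14.7 to 37.9 and 12.2 to 20.9. *Mrc1* had a log2 fold change of −0.72 (unadjusted p = 0.0266, adjusted p = 0.976 in edgeR). Of all rows, 3.68% had an unadjusted p under 0.05. Sebaceous gland genes (4 of 7 tested, median −0.25) ranged from 77.2 to 146 and 103 to 142. In Vehicle 4 *Fasn* and *Scd1* held 1943 and 351 counts, *Mgst1* 6, *Fa2h* 1, and *Scd3* and *Elovl3* 0. T-lineage markers (5 of 5 tested, median 0.14) ranged from 121 to 177 CPM with vehicle against 131 to 155 with bexarotene. Mesothelial and other simple-epithelial genes (0 of 6 tested) had 2 to 41 counts with vehicle against 0 to 57 with bexarotene, and *Cldn4* alone held 132 over all mice. The part of these cells, and of the depth of Bexarotene 1 and 2, in the keratin levels was not tested.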

How the data were processed

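RNA of 4 vehicle-treated and 4 bexarotene-treated mice was sequenced with a directional kit after a step of ribosomal RNA depletion, although *Rn18s*, a ribosomal RNA, held 55.8% of the counts. Per the submitters' processing notes, the authors used Trimmomatic 0.30 for trimming, FastQC 0.11.9 for quality control, HISAT2 2.0.1 for alignment to GRCm39 (another version is named in the methods) and HTSeq 0.6.1 for counting. The strand setting of HTSeq is not given in the sources used here. The deposited values were whole-number counts for each gene before any scaling or filter. Rows without a gene name (29.1% of counts) and *Rn18s* stayed in the library sizes and tests, and an alternative took the TMM scaling from named genes only.

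Tests were run in R 4.3.3 with edgeR 4.0.16 (filterByExpr, minimum count 10, minimum total 15, TMM, quasi-likelihood test without covariates, Benjamini-Hochberg adjustment), limma 3.58.1 and DESeq2 1.42.0, and in Python 3.11.15 with pandas 2.3.3, scipy 1.17.1 and pysam 0.24.0. The edgeR script was tested on simulated data. Exact permutation tests used log2 of CPM plus 1. Totals were 23150622, 18906690, 24020342 and 16196852 counts in Vehicle 1 to 4 against 11669333, 8518428, 18340980 and 16967769 in Bexarotene 1 to 4, and 3 counts, the limit a count of 0 allows, were worth 0.0596 to 1.27 CPM. Values in every mouse were given for keratins with at least 20 counts and for *Krt5*, *Krt14*, *Krt1*, *Krt10*, *Krt8*, *Krt18* and *Krt19*. They were also given for the 3 genes with the most counts in the desmosome, hair follicle and *Krtap* lists. The other marker lists were given mainly as sums, with single genes named. *Krt2*, *Lef1* and the ratios named as such were singled out after their values were seen. The family, its classes, the marker lists and these rules were chosen with earlier results of these data known. Alternatives were RLE, total-count and named-gene scaling, no filter, 10 counts in every mouse, each mouse left out, Bexarotene 1 and 2 left out, a replicate block, DESeq2 and limma-voom with sample weights. No libraries were duplicates, the highest correlation between mice being 0.964.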

Additional observations from a re-analysis of the deposited data

Results flagged for a closer look

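The 32 keratins with 20 or more counts in sum and *Krt8*, *Krt18* and *Krt19* were screened, and within a group of 4 mice 21 of their levels stood apart from the other 3 by more than Dixon's 95% critical value for 4 samples. Chance passes this limit in about 1 of 20 groups of normally distributed values, a rate that does not hold for counts near 0. In 8 of the 21 the other 3 mice were at 0 (*Krt8* in both groups, *Krt18*, *Krt26*, *Krt81*, *Krt82*, *Krt32* and *Krt39*), so that any count would pass. In vehicle-treated mice these were *Krt8* at 0.0995 CPM and *Krt84* at 1.04 CPM, both in Vehicle 2, the former from 2 counts. Among the screened keratins the other 19 were all high values in Bexarotene 3. Of the inner root sheath keratins these were *Krt71* at 101 CPM, *Krt25* at 50.7, *Krt27* at 42.8, *Krt72* at 11.9, *Krt28* at 8.57, *Krt73* at 7.75 and *Krt26* at 4.21 CPM, where the other bexarotene-treated mice had at most 10.1, 3.80, 2.53, 1.27, 0.236, 0.422 and 0 CPM. Of the hair keratins these were *Krt87* at 9.04 CPM, *Krt81* at 8.97, *Krt83* at 4.89, *Krt84* at 0.782, *Krt32* at 0.714, *Krt82* at 0.578 and *Krt39* at 0.476 CPM. The others were *Krt17* at 17.8 CPM, *Krt75* at 8.70, *Krt23* at 1.87, *Krt8* at 0.136 and *Krt18* at 0.102 CPM, the last 2 from 4 and 3 counts. These genes share 1 mouse and are not independent flags.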

How the results depend on the processing

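No alternative gave a keratin with an adjusted p under 0.05 in edgeR, DESeq2 or limma-voom. The number under an unadjusted p of 0.05 was 1 (*Krt16*) with total counts only, 1 (*Krt2*) with no filter and 0 to 4 when 1 mouse was left out. Over all rows it was 80 of 11616, 957 of 25539, and 203 to 914 when 1 mouse was left out. The median log2 fold change of the tested keratins ranged from −1.26 to 0.22 over the mice left out, was 0.46 without Bexarotene 1 and 2, and kept its sign under the other scalings, filters and tools. Without Bexarotene 1 and 2, *Krt25* (0.52), *Krt27* (0.68), *Krt71* (0.56) and *Krt80* (0.21) changed sign. With limma-voom and sample weights, *Krt10* (0.61), *Krt1* (0.55), *Krt15* (0.94), *Krt77* (1.28), *Krt79* (0.28) and *Krt86* (−0.18) did. Over the mice left out, the values ranged from −5.50 to 1.36 for *Krt25*, −3.94 to 1.54 for *Krt27*, −4.51 to 1.50 for *Krt71*, −0.73 to 0.22 for *Krt15*, −1.15 to 0.35 for *Krt16*, −1.83 to 0.53 for *Krt17*, −1.76 to 0.57 for *Krt80* and −1.16 to 0.37 for *Krt79*. The cause of these changes was not tested, and leaving out mice also changes which keratins pass the filter. *Krt5*, *Krt14*, *Krt10* and *Krt1* stayed below 0 over all mice left out, up to −0.41, −0.17, −0.13 and −0.08.

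Replicate numbers did not pair the mice, as deviations of same-numbered mice correlated at −0.08, −0.09, −0.07 and 0.0015 and 0 of 8 mice correlated best with their own number. With the number as a replicate block, 0 keratins were called, the median was −0.22, 9 of 14 were below 0, and *Krt15* (0.31), *Krt17* (0.29), *Krt77* (0.11) and *Krt79* (0.24) changed sign.

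Requiring 10 counts in every mouse left 2 keratins to test, *Krt5* and *Krt14*. Depth and TMM scaling together limit all keratins in Bexarotene 2, where 1 count is worth 0.422 CPM.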
